A study of Mus musculus with 10 samples.

Results

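The comparison described here sets NIH-3T3 mouse fibroblasts given 800 µM uridine for 2 h against untreated NIH-3T3 fibroblasts. Its members are 4 of the 10 RNA-seq libraries of the series: uridine A, uridine B, untreated A and untreated B, chosen by treatment label from the deposited read counts per gene. NIH-3T3 is an immortalised mouse embryonic fibroblast line, labelled wild type, and all libraries were made from total RNA of cells kept in DMEM with newborn calf serum. Neither the uridine nor the untreated RNA went through a base-conversion chemistry. The series compares SLAM and TUC chemistry, ways of marking RNA that took up 4-thiouridine (4sU), and its other 6 libraries came from cells given 800 µM 4sU for 2 h: 2 unconverted, 2 after SLAM and 2 after TUC conversion. Uridine is the natural counterpart of 4sU at the same dose and time, so the comparison asks how far the added nucleoside by itself shifts messenger RNA levels.

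Uridine enters cells mainly through equilibrative nucleoside transporters and, where they are expressed, concentrative ones. Inside, uridine-cytidine kinases phosphorylate it to UMP, which feeds the UTP and CTP pools, while uridine phosphorylases split it to uracil. Cells also build UMP from glutamine and aspartate by the de novo route, and its first enzyme is inhibited by UTP in animal cells. UTP and its sugar conjugates supply glycosylation, CTP supplies phospholipid synthesis, and extracellular UTP and UDP act on P2Y receptors.

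Gene totals were 27094222 and 33733774 counts in uridine A and B, against 33225933 and 33785682 counts in untreated A and B. The table lists 17053 genes, and 12218 passed the filter on low counts. The fibroblast markers fixed for the label check (10 of 10 tested, among them Col1a1, Col1a2 and Vim) summed to 18409 to 22303 CPM with uridine and 19720 to 22871 CPM without. CPM are read counts divided by library size, after TMM scaling, so that libraries of unequal depth can be compared. Epithelial markers summed to at most 0.327 CPM with uridine and 0.238 CPM without, endothelial ones to 1.13 and 1.01 CPM, macrophage ones to 10.5 and 10.8 CPM, and adipocyte or muscle ones to 5.52 and 5.63 CPM. The labels do not say that A and B were separate cultures, so p-values and intervals measure the spread between these libraries, which may be technical. CPM are shares of the sequenced RNA: a loss or gain of total RNA common to all genes is not visible in them, and fewer cells and less RNA per cell cannot be told apart in bulk samples.

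Across the transcriptome the levels with uridine and without differed little, and 1 gene of 12218 passed the test. It was Rps2-ps6, a pseudogene of the ribosomal protein gene Rps2, and it rose. That is 0.00818% of the genes tested (edgeR quasi-likelihood test with the letter as a block, Benjamini-Hochberg adjusted p under 0.05). A further measure of the same fit, an unadjusted p under 0.05, was met by 380 genes, or 3.11%. A fit of only the 4 libraries, with its own spread, had 952 such genes (7.79%) and 3 calls. Its common coefficient of variation was 2.88%, against 4.42% in the fit of all 10 libraries. The wider spread of the larger fit makes its count of calls the more conservative of these fits. For scale, unconverted 4sU against the same untreated libraries had 2432 calls in the fit of all 10 libraries. That is 19.9% of the genes tested (851 higher, 1581 lower). The comparisons share the untreated libraries.

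A missed threshold does not bound an effect, so the 95% interval of each gene's log2 fold change was set against fixed limits. The interval lay within 25% (at most 25% higher and at most 20% lower, the same distance on the log2 scale) for 8904 genes (72.9%), within 1.5-fold for 10549 (86.3%) and within 2-fold for 11434 (93.6%). Without the replicate block the count within 25% was 3476 (28.4%), and no gene passed the equivalence test at 25%. The equivalence test used 2 one-sided limma tests per gene, adjusted for the number of genes (Benjamini-Hochberg adjusted p under 0.05). It placed 9194 genes (75.2%) within 25%, 10737 (87.9%) within 1.5-fold and 11650 (95.4%) within 2-fold. Each one-sided test was held to 0.05, and a 95% interval leaves less than that on each side. The larger counts of the equivalence test therefore do not come from a stricter rule. The margin, meaning the distance from the estimate to either bound, had a median of 0.16 on the log2 scale (1.12-fold) and a 90th percentile of 0.58 (1.49-fold). The central 95% of the estimates ran from -0.35 to 0.30, with a median of 0.00157. The spread behind these intervals was pooled over the 5 groups of the series, with 4 residual degrees of freedom. limma also drew each gene's variance toward a value shared across genes. The margins are therefore narrower than those 4 degrees of freedom alone would mostly give.

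The bound depended on expression level. Among 8781 genes with a mean of 10 CPM or more over the 4 libraries, the median margin was 0.14 (1.10-fold), 95.7% of intervals lay within 25% and 99.95% within 1.5-fold. In the 1488 genes at 3 to 10 CPM, 96.6% of intervals lay within 1.5-fold, and in the 815 genes at 1 to 3 CPM the share was 41.0%. Below 1 CPM the median margin was 0.84 (1.79-fold), and none of 1134 intervals lay within 1.5-fold. For such genes the interval reached, at the median, 1.79-fold to either side of the estimate. A call needs an adjusted p, which is stricter than this interval. The smallest change it could detect in these genes was not computed. The 4835 listed genes that were not tested had a median of 2 counts summed over the 4 libraries. None of them had 10 or more counts in both libraries of either group and 0 in both of the other.

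**Figure D1:**
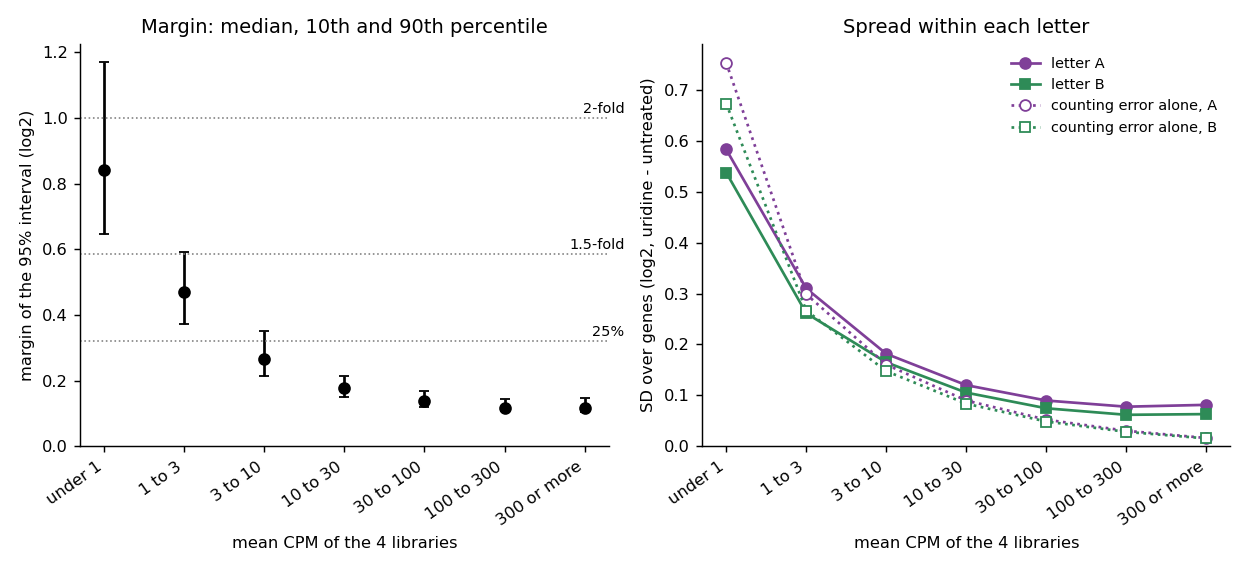
Precision by expression level, with mean CPM of the 4 libraries on both x axes. Left, the margin of the 95% interval of the log2 fold change (points, median over genes; bars, 10th to 90th percentile), which falls from a median of 0.84 below 1 CPM to 0.12 at 300 CPM or more; dotted lines mark 25%, 1.5-fold and 2-fold. Right, the SD over genes of the log2 CPM difference (uridine minus untreated) in letters A and B (filled) and the SD that counting alone gives (open); the filled points lie above the open ones from 3 CPM upward, and the filled points include a prior count of 2, which shrinks the differences of low genes.

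The genes that handle uridine were grouped by role, in lists of 55 symbols for uptake, salvage and breakdown, synthesis, and nucleotide receptors with ectonucleotidases. None of the 38 tested members was called, where 1 of all 12218 tested genes was. Of these members 36 (94.7%) had intervals within 1.5-fold, beside 86.3% of all tested genes, so neither count is particular to uridine handling.

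The 3 tested uptake genes encode equilibrative transporters. Slc29a1, the main plasma membrane one, stood at 25.7 and 22.4 CPM in uridine A and B, against 22.5 and 22.2 CPM in untreated A and B. Its log2 fold change was 0.10 (95% interval -0.06 to 0.26), and the higher value in uridine A had no counterpart in uridine B. Slc29a2, another plasma membrane transporter, had 10.5 and 10.5 CPM in uridine A and B, against 10.3 and 10.7 CPM in untreated A and B, so the groups overlapped and the interval was -0.21 to 0.20. Slc29a3, which works in lysosomes and mitochondria, had 22.1 and 28.5 CPM in uridine A and B, against 21.9 and 25.9 CPM in untreated A and B (interval -0.11 to 0.27). All 3 lay within 25%. The other listed transporters, Slc29a4, Slc28a1 and Slc28a2, had at most 1 count in any of the 4 libraries.

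Among receptors and ectoenzymes 4 members were tested and all 4 lay within 25%. P2ry2, a receptor for UTP and ATP, had 31.3 and 31.8 CPM in uridine A and B, against 32.3 and 31.8 CPM in untreated A and B. Its interval was -0.17 to 0.12, and the uridine values lay at or just below the untreated ones. P2ry6, a UDP receptor, and P2ry14, a receptor for UDP-sugars, had at most 3 counts in any library and were not tested. The ectonucleotide pyrophosphatase gene Enpp1 had 23.8 and 20.6 CPM in uridine A and B, against 22.9 and 20.2 CPM in untreated A and B (interval -0.14 to 0.22), and the nucleoside diphosphatase genes Entpd5 and Entpd6 had intervals of -0.16 to 0.14 and -0.14 to 0.18.

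Of the salvage and breakdown genes 20 were tested, 14 lay within 25% and 18 within 1.5-fold. Uck2, a uridine-cytidine kinase of growing cells, stood at 236 and 217 CPM in uridine A and B, against 231 and 209 CPM in untreated A and B. The groups overlapped across letters, each uridine library was slightly above its untreated partner, and the interval was -0.06 to 0.15 (0.961 to 1.11-fold). Uck1, the other such kinase, had 43.4 and 39.1 CPM in uridine A and B, against 41.1 and 36.9 CPM in untreated A and B, with within-letter differences of 0.08 and 0.08 on the log2 CPM scale and an interval of -0.05 to 0.21. The related Uckl1 had an interval of -0.21 to 0.15.

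Cmpk1, which turns UMP and CMP into diphosphates, had 115 and 117 CPM in uridine A and B, against 107 and 118 CPM in untreated A and B (interval -0.11 to 0.21). The nucleoside diphosphate kinase genes Nme1 and Nme2, which make triphosphates, had intervals of -0.09 to 0.17 and -0.12 to 0.13. The intervals of Nme3 and Nme6, further members of that family, were wider, at -0.33 to 0.31 and -0.24 to 0.18, and that of Nme3 reached past 25%. Thymidine kinase 1, Tk1, had 103 and 76.7 CPM in uridine A and B, against 99.7 and 73.04 CPM in untreated A and B: it was lower in letter B than in letter A in both groups, and its interval was -0.09 to 0.21. The pyrimidine 5'-nucleotidase genes Nt5c3 and Nt5c3b had intervals of -0.13 to 0.18 and -0.13 to 0.17.

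The breakdown genes Upp1, Upp2 and Dpyd were low in counts and had the widest bounds of the 38. Upp1, the more widely expressed uridine phosphorylase, had 2.98 and 2.65 CPM in uridine A and B, against 2.64 and 2.98 CPM in untreated A and B. It was higher with uridine in letter A and lower in letter B, and its interval of -0.45 to 0.45 lay within 1.5-fold. Upp2, the other uridine phosphorylase, had 0.799 and 0.467 CPM in uridine A and B, against 0.297 and 0.433 CPM in untreated A and B (interval -0.01 to 1.51, unadjusted p = 0.0573), with both uridine values above both untreated ones. Dpyd, the first enzyme of uracil breakdown, had 0.690 and 0.554 CPM in uridine A and B, against 0.208 and 0.751 CPM in untreated A and B, and its interval of -0.71 to 1.36 allowed changes past 2-fold. Cda, cytidine deaminase, which makes uridine from cytidine, had 5.30 and 5.02 CPM in uridine A and B, against 5.56 and 5.78 CPM in untreated A and B (interval -0.42 to 0.16).

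De novo pyrimidine and deoxynucleotide synthesis gave 11 tested genes, all within 25%. Cad, whose protein carries the first 3 steps of the route, had 224 and 223 CPM in uridine A and B, against 244 and 216 CPM in untreated A and B and an interval of -0.16 to 0.09 (0.893 to 1.06-fold). Its difference was -0.12 in letter A and 0.04 in letter B. Dhodh, the route's mitochondrial enzyme, had 15.3 and 16.05 CPM in uridine A and B, against 16.1 and 14.01 CPM in untreated A and B, again below its partner in A and above it in B (interval -0.11 to 0.24). Umps, which completes UMP, had 97.8 and 76.9 CPM in uridine A and B, against 94.1 and 74.8 CPM in untreated A and B (interval -0.06 to 0.16).

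Ctps, which makes CTP from UTP, had the highest estimate of that list, 0.09 (interval -0.01 to 0.20, unadjusted p = 0.0907), at 282 and 262 CPM in uridine A and B, against 275 and 236 CPM in untreated A and B. Its partner Ctps2 had an interval of -0.10 to 0.14. The ribonucleotide reductase genes Rrm1 and Rrm2 had intervals of -0.03 to 0.19 and -0.07 to 0.14, and Tyms, thymidylate synthase, -0.16 to 0.11. The plot of intervals for the uridine-handling genes shows that only Upp2 and Dpyd reached past the 1.5-fold lines.

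**Figure D2:**
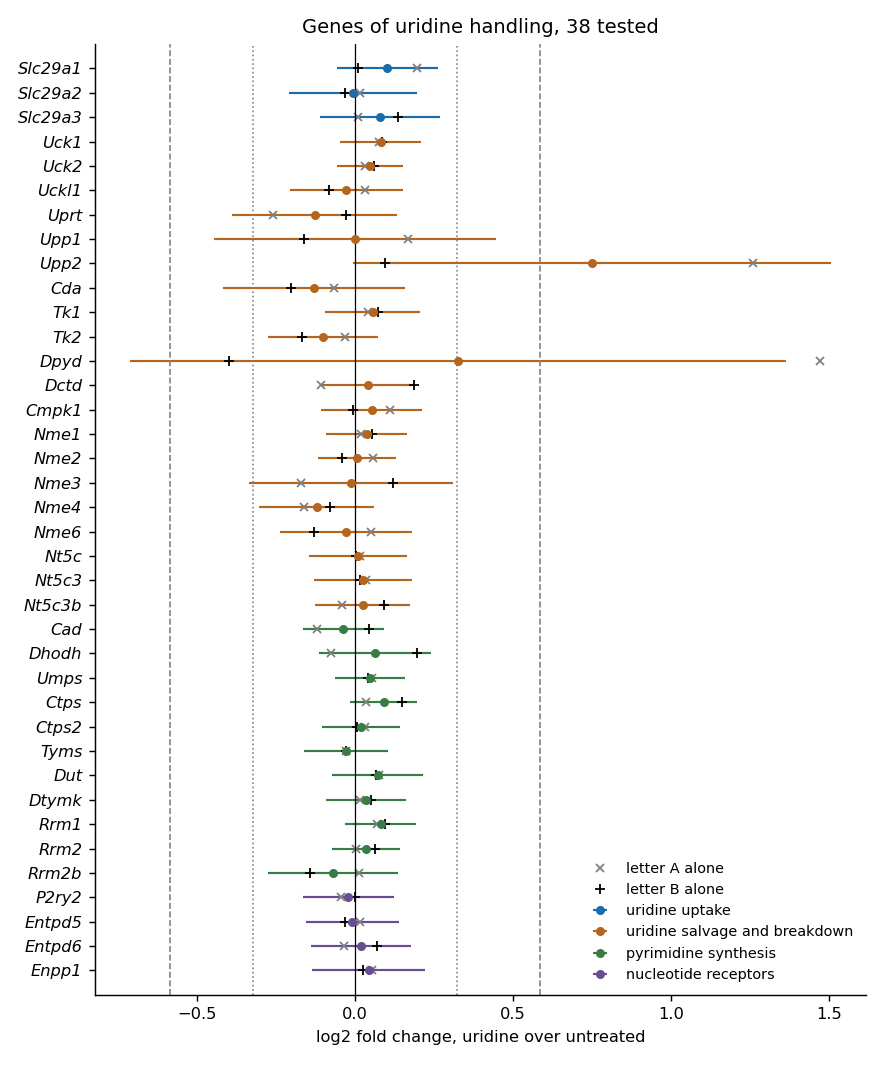
Log2 fold change, uridine over untreated, of the 38 tested genes of uridine handling (filled points, fit over both letters; bars, 95% interval; crosses and plus signs, the difference in letter A and letter B alone). Dotted and dashed lines mark 25% and 1.5-fold. Intervals of 36 genes stay within 1.5-fold, and those of Upp2 and Dpyd, both under 1 CPM in all 4 libraries, do not.

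Genes that use the UTP and CTP pools showed no call either. In the UDP-sugar and glycosylation list all 24 members were tested and 22 lay within 1.5-fold, the exceptions being the low-count hyaluronan synthase genes Has1 and Has3. Has2, the remaining hyaluronan synthase gene, had 46.3 and 39.9 CPM in uridine A and B, against 44.9 and 38.02 CPM in untreated A and B (interval -0.08 to 0.19). Galt, of galactose metabolism, had the lowest estimate at -0.17 (interval -0.41 to 0.06). All 13 tested genes of CTP-dependent phospholipid synthesis lay within 1.5-fold. Their ends were Pgs1, of phosphatidylglycerol synthesis, at -0.08 (interval -0.19 to 0.03) and Crls1, cardiolipin synthase, at 0.17 (interval 0.01 to 0.33). Crls1 stood at 40.7 and 34.6 CPM in uridine A and B, against 35.7 and 31.2 CPM in untreated A and B, higher with uridine in each letter, with an unadjusted p of 0.0383. Of 18 purine genes 17 lay within 25%, and the exception was Adssl1, at no more than 0.654 CPM in any of the 4 libraries.

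Programs that respond to stress or stimulation stayed bounded. The p53 target list had 25 tested members, 20 within 25% and 24 within 1.5-fold, with a median log2 fold change of 0.03 against 0.00157 over all genes. Cdkn1a, the cell-cycle inhibitor p21, had 84.9 and 89.9 CPM in uridine A and B, against 85.6 and 89.3 CPM in untreated A and B, and its interval was -0.11 to 0.11 (0.925 to 1.08-fold). Mdm2, the ubiquitin ligase that restrains p53, had 60.6 and 68.8 CPM in uridine A and B, against 63.4 and 63.7 CPM in untreated A and B (interval -0.14 to 0.19). In the same fit unconverted 4sU over untreated was 1.48 for Cdkn1a and 1.15 for Mdm2 on the log2 scale (edgeR adjusted p 3.33e-11 and 5.38e-08). Trp53inp1, another target, had -0.09 with uridine (interval -0.32 to 0.14) and 1.47 with unconverted 4sU.

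Immediate-early genes answer serum and growth factors within minutes, and 28 of the 30 tested had intervals within 1.5-fold. Fos, an AP-1 subunit, and Arc were the exceptions. Fos had 2.40 and 1.78 CPM in uridine A and B, against 2.85 and 2.34 CPM in untreated A and B, an interval of -0.71 to 0.06 and, in both letters, the lower value with uridine. Jun, its partner, had 193 and 186 CPM in uridine A and B, against 199 and 173 CPM in untreated A and B (interval -0.09 to 0.15), and the groups overlapped. The phosphatase genes Dusp5 and Dusp6, which switch off MAP kinases, were the upper end of the list at 0.11 (interval -0.03 to 0.25) and 0.10 (interval -0.02 to 0.22). The 30 short-lived regulators, whose RNA turns over fast enough to move within 2 h, all lay within 1.5-fold. Myc, a growth regulator, had 93.4 and 81.5 CPM in uridine A and B, against 98.8 and 77.6 CPM in untreated A and B (interval -0.14 to 0.13), and Txnip, a sugar-responsive arrestin, had 13.01 and 20.9 CPM in uridine A and B, against 13.02 and 16.9 CPM in untreated A and B (interval -0.01 to 0.36).

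The integrated stress response list had 22 tested members, 21 within 25% and all within 1.5-fold. Its ends included Ddit3, the stress transcription factor CHOP, at -0.15 (interval -0.30 to 0.01) and Atf4, the pathway's central factor, at 0.10 (interval -2.18e-05 to 0.21). Atf4 had 579 and 443 CPM in uridine A and B, against 540.1 and 412 CPM in untreated A and B, and each uridine library was above its partner by about the same amount (0.10 and 0.11 on the log2 CPM scale). Heat shock and NRF2 genes had 17 tested members each, all within 1.5-fold. Nqo1, a quinone reductase induced by NRF2, had 40.4 and 30.3 CPM in uridine A and B, against 36.4 and 27.6 CPM in untreated A and B (interval 0.01 to 0.28, unadjusted p = 0.0400). The interferon list was bounded less tightly, with 8 of 12 tested members within 1.5-fold at a median of 5.32 CPM, and none of its members was called. Of 17 tested NF-kB genes 16 lay within 1.5-fold. Cxcl5, a neutrophil chemokine, had 16.7 and 16.2 CPM in uridine A and B, against 14.7 and 14.4 CPM in untreated A and B (interval -0.01 to 0.37).

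In housekeeping and growth programs all 41 ribosomal protein genes and all 30 ribosome biogenesis genes lay within 25%. So did all 32 nuclear genes of oxidative phosphorylation, all 16 glycolysis genes, all 20 cholesterol synthesis genes and all 25 G2 and mitosis genes. The median levels of these lists ran from 73.2 CPM (G2 and mitosis) to 842 CPM (ribosomal proteins). Of all tested genes 98.8% lay within 25% at 30 to 100 CPM and 99.4% at 100 CPM or more. The counts are therefore near the share for their level and not particular to these programs. Eef1a1, a translation elongation factor and the gene with the highest mean CPM, had 10721 and 11098 CPM in uridine A and B, against 11577 and 10973 CPM in untreated A and B (interval -0.18 to 0.09). Fn1, fibronectin, had 6557 and 10203 CPM in uridine A and B, against 7608 and 10667 CPM in untreated A and B (interval -0.28 to -0.00179), and it was lower in letter A than in letter B in both groups. Gapdh, a common reference gene, had 2211 and 1831 CPM in uridine A and B, against 2258 and 1793 CPM in untreated A and B (interval -0.16 to 0.16). Actb, cytoplasmic actin, had 3349 and 3297 CPM in uridine A and B, against 3383 and 3499 CPM in untreated A and B (interval -0.18 to 0.07).

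The narrowest interval of a gene at 10 CPM or more was that of Aars, the alanyl-tRNA synthetase gene, at 622 and 487 CPM in uridine A and B, against 623 and 482 CPM in untreated A and B (-0.09 to 0.11, or 0.937 to 1.08-fold). Lox, which cross-links collagen, and Srebf2, the regulator of cholesterol synthesis, were next, with intervals of -0.12 to 0.08 and -0.14 to 0.07. In oxidative phosphorylation Cox6c and Atp5c1, subunits of complex IV and ATP synthase, were the upper end at 0.13 and 0.13 (unadjusted p = 0.0213 and 0.0244). Ccne2, cyclin E2, was the upper end of the 20 G1/S and replication genes at 0.17 (interval 0.00404 to 0.33, unadjusted p = 0.0449). None of these passed adjustment. Of 12 tested histone genes 8 lay within 1.5-fold, and those that did not were low in counts.

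Over the 30 lists 490 distinct genes were tested, 467 had intervals within 1.5-fold, none was called and 10 had an unadjusted p under 0.05. Those are 95.3% within 1.5-fold and 2.04% at an unadjusted p under 0.05, beside 86.3% and 3.11% of all tested genes. Nominal p-values were thus no more frequent in the lists. These shares are not matched for level. All tested genes include 1134 below 1 CPM, none of them within 1.5-fold, and at 10 CPM or more 99.95% lay within it. For 24 lists with 5 or more tested members the median log2 fold change lay between -0.14 and 0.07. The lowest belonged to nuclear noncoding RNAs (5 tested), at -0.24 in letter A and -0.04 in letter B. This median moved when 1 library was left out. It turned to 0.06 without untreated A, was -0.06 without uridine B and -0.16 without uridine A, and reached -0.36 without untreated B. In 12 of the 24 lists the medians of letter A and letter B had opposite signs. The list median of greatest size in letter B alone was 0.05, for the integrated stress response, where letter A gave -0.0051.

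**Figure D3:**
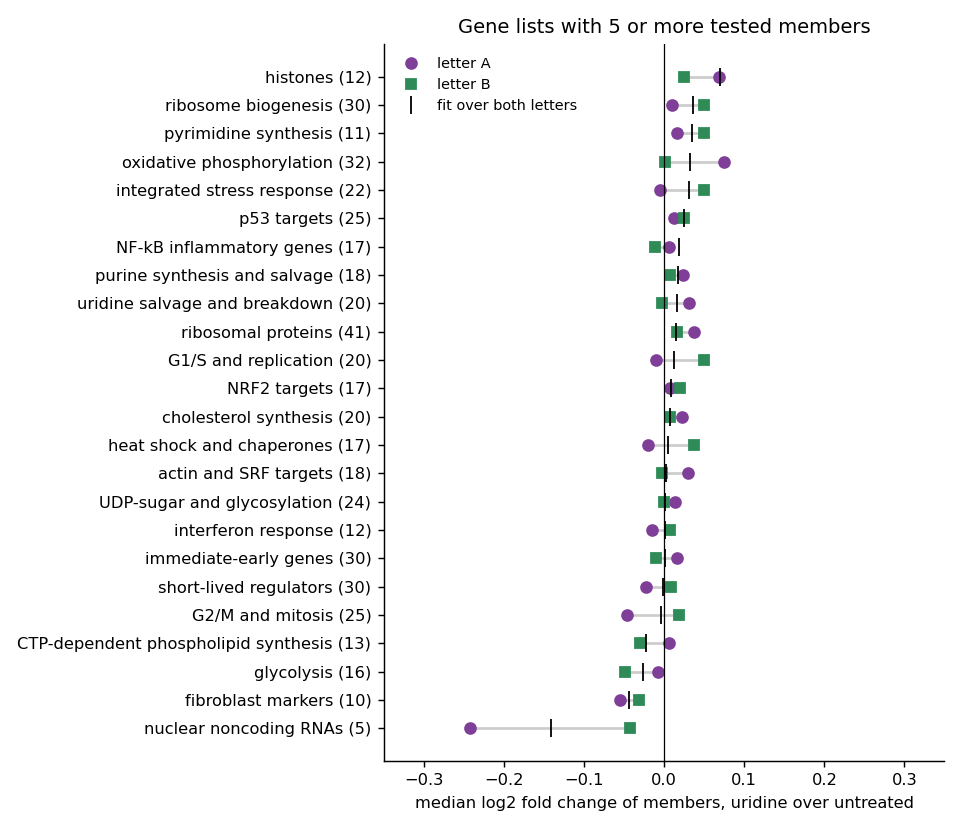
Median log2 fold change, uridine over untreated, of the 24 gene lists with 5 or more tested members (number in brackets). Circles and squares are letters A and B alone, the vertical tick the fit over both. Nuclear noncoding RNAs stand lowest at -0.14, and all other list medians of the fit lie between -0.04 and 0.07.

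Rps2-ps6 was the gene called. Annotated as a pseudogene and named as a copy of Rps2, it had 169 and 84.5 CPM in uridine A and B, against 88.8 and 64.8 CPM in untreated A and B. Both letters were higher with uridine, by 0.93 in A and 0.38 in B on the log2 CPM scale, but uridine B lay below untreated A, so the groups overlapped across letters. The means were 127 ± 59.5 CPM in uridine cells and 76.8 ± 16.9 CPM in untreated cells (SD, n = 2 each). The edgeR log2 fold change was 0.67 ± 0.10 (SE), with an adjusted p of 0.0434. limma gave an adjusted p of 0.0586 for the same gene, above the threshold, and an interval of 0.46 to 0.87. The rise was not particular to uridine: unconverted 4sU over untreated was 0.83 (edgeR adjusted p = 2.05e-05). Its CPM in A and B were 168 and 109 with unconverted 4sU, 84.7 and 59.0 after SLAM and 126 and 94.3 after TUC. Both contrasts share the untreated libraries. Rps2 itself had 1802 and 1315 CPM in uridine A and B, against 1657 and 1227 CPM in untreated A and B (log2 fold change 0.11, interval -0.03 to 0.25). Reads of such a copy and of its parent may be shared, and no source used here gives the rule by which they were assigned, so the value is uncertain. The call was lost without uridine A (log2 fold change 0.41, adjusted p = 1.00) and without untreated A (0.57, adjusted p = 0.487). As the only call of all 12218 tested genes was Rps2-ps6, the other 13 tested genes with a pseudogene symbol could hold none.

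Malat1 and Neat1, neighbouring genes for long noncoding RNAs that stay in the nucleus, were lower with uridine in both letters. Malat1 had 309 and 814 CPM in uridine A and B, against 512 and 939 CPM in untreated A and B. Its level in letter A was below that in letter B in both groups, and the uridine library was the lower of each letter, with differences of -0.73 and -0.21 on the log2 CPM scale. Neat1 had 308 and 831 CPM in uridine A and B, against 378 and 1025 CPM in untreated A and B, with differences of -0.30 and -0.30. Malat1 averaged 562 ± 357 CPM in uridine cells and 725 ± 302 CPM in untreated cells (SD, n = 2 each) and Neat1 569 ± 369.8 CPM in uridine cells and 701 ± 457 CPM in untreated cells (SD, n = 2 each), SDs that hold the difference between the letters. With all 10 libraries neither passed (edgeR log2 fold change -0.44 ± 0.20 and -0.30 ± 0.12, adjusted p = 1.00 each, unadjusted p = 0.0382 and 0.0264). That fit also drew its spread from the libraries with 4sU. Malat1 there had 477 and 1122 CPM in A and B unconverted, 173 and 361 CPM after SLAM and 792 and 799 CPM after TUC. Neat1 had 266 and 999, 162 and 676, and 224 and 937 CPM in the same order. In a fit of the 6 unconverted libraries the edgeR SEs were 0.075 for Malat1 and 0.079 for Neat1, and neither was called. The part of conversion in this was not tested. Leaving out 1 library changed the size in the fit of all 10 libraries. Part of the comparison then ran across letters, through a letter term shared by all groups. Neat1 moved although its within-letter differences were nearly equal. The log2 fold change of Malat1 was -0.17 without uridine A and -0.77 without uridine B. That of Neat1 was -0.53 without uridine A, -0.10 without uridine B, -0.08 without untreated A and -0.50 without untreated B. None of these values was called.

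In a fit of only the 4 uridine and untreated libraries both were lower with uridine. With 1 residual degree of freedom, its SEs and p-values lean on a spread shared across genes. They do not measure a gene's own gap between the letters. That gap was wide for Malat1 (-0.73 in A, -0.21 in B) and Rps2-ps6 (0.93 in A, 0.38 in B). Malat1 had a log2 fold change of -0.46 ± 0.06 (SE; edgeR adjusted p = 1.99e-06) and Neat1 -0.30 ± 0.04 (adjusted p = 9.83e-06), beside Rps2-ps6 at 0.67 ± 0.06 (adjusted p = 2.14e-09), and these 3 were the only edgeR calls. Meg3, a further noncoding RNA of the list, had 118 and 205 CPM in uridine A and B, against 139 and 211 CPM in untreated A and B and was not called. When a smooth trend on gene length was removed from each library, an alternative chosen after seeing the data, the 4-library fit gave Malat1 a log2 fold change of -0.44, which passed by edgeR (adjusted p = 0.0372) and not by limma (adjusted p = 0.420). Neat1, at -0.21, passed by neither (edgeR adjusted p = 0.461). DESeq2 on the same 4 libraries called 1 gene, Neat1 (adjusted p = 6.59e-05).

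**Figure D4:**
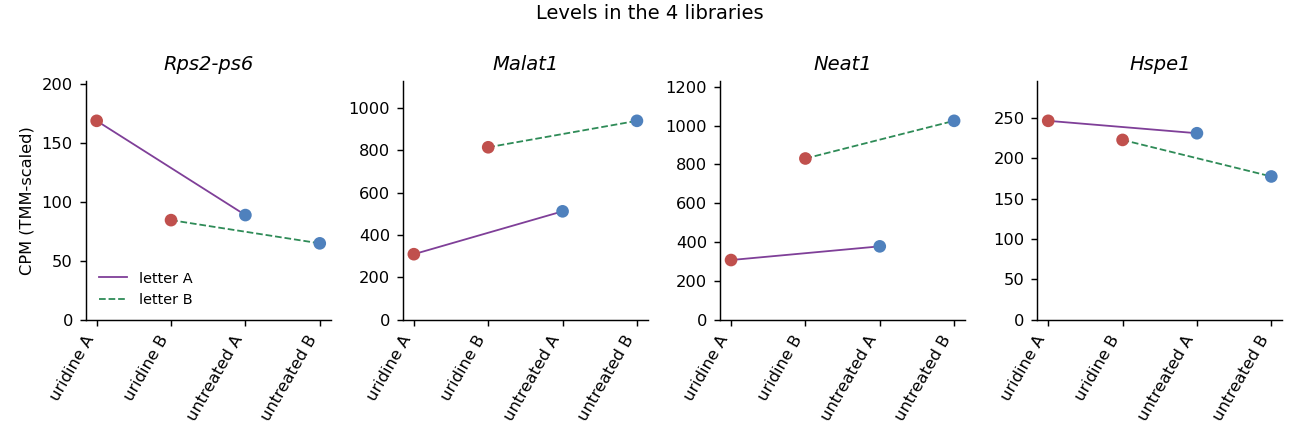
TMM-scaled CPM of Rps2-ps6, Malat1, Neat1 and Hspe1 in uridine A, uridine B, untreated A and untreated B, 1 point per library; lines join the libraries of a letter (solid, A; dashed, B). Within each letter Rps2-ps6 and Hspe1 are higher with uridine and Malat1 and Neat1 lower, while for Malat1 and Neat1 both letter B libraries lie above both letter A libraries.

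Of the other genes at 10 CPM or more with the same sign in both letters, none passed with all 10 libraries. Hspe1, the mitochondrial co-chaperonin, had 247 and 223 CPM in uridine A and B, against 231 and 178 CPM in untreated A and B (log2 fold change 0.21, interval 0.07 to 0.35, unadjusted p = 0.00471). Uridine B lay below untreated A, so the groups overlapped. In the 4-library fit its adjusted p was 0.0754 by edgeR and 0.0335 by limma. Atpif1, an inhibitor of mitochondrial ATP synthase, had 84.6 and 71.9 CPM in uridine A and B, against 80.7 and 55.7 CPM in untreated A and B, with most of its difference in letter B. Ankrd1, a muscle ankyrin repeat gene that responds to YAP, had 66.2 and 44.5 CPM in uridine A and B, against 60.5 and 35.1 CPM in untreated A and B (interval 0.05 to 0.40).

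Among such genes, leaving out predicted, clone and pseudogene names, Erich1 had the highest estimate, 0.31 (interval 0.09 to 0.52). It had 11.3 and 11.3 CPM in uridine A and B, against 9.09 and 9.22 CPM in untreated A and B, so that its groups did not overlap. Cep41, of the cilium, Zdhhc2, a palmitoyltransferase, Cox16, an assembly factor of complex IV, and Zfp617 had estimates of 0.27, 0.27, 0.22 and 0.21. At the low end Pdk4, the kinase that switches off pyruvate dehydrogenase, had 6.61 and 12.8 CPM in uridine A and B, against 8.59 and 15.9 CPM in untreated A and B (interval -0.54 to -0.13, unadjusted p = 0.00173). Meis3, a homeobox gene, had 11.3 and 11.6 CPM in uridine A and B, against 13.6 and 14.6 CPM in untreated A and B (interval -0.49 to -0.11). Rsc1a1, C2cd2l, Slc25a45 and Kalrn followed at -0.29, -0.28, -0.28 and -0.28. Each of these had an edgeR adjusted p of 1.00.

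At 10 CPM or more 4 of 8781 intervals reached past 1.5-fold: those of Malat1, Rps2-ps6, Gm26619 and Gm20721. The estimates of Gm26619 and Gm20721 were -0.04 and 0.14, and their intervals of -0.63 to 0.55 and -0.43 to 0.71 were wide on both sides.

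Within a letter, uridine and untreated libraries were close to each other, and the letters were far apart. The chi-square statistic per degree of freedom over genes, which is 1 for sampling noise alone, was 4.30 for uridine A against untreated A and 3.27 for uridine B against untreated B. Between letters it was 39.0 for uridine B against uridine A and 36.9 for untreated B against untreated A. Pearson's r of log2 CPM across genes was 0.997 within each letter, 0.992 between the uridine libraries and 0.993 between the untreated ones; genes are not independent replicates. No pair was within sampling noise, so all 4 libraries were counted separately.

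Among genes at 10 CPM or more the SD of the uridine minus untreated difference was 0.098 in letter A and 0.083 in letter B on the log2 CPM scale. Counting alone would give 0.063 in letter A and 0.058 in letter B. The median absolute deviation, scaled as an SD, was 0.089 in A and 0.075 in B. Its excess over the median counting variance corresponds to a coefficient of variation of 3.49% in A and 2.80% in B. The difference between letter B and letter A had an SD of 0.253 in uridine libraries and 0.231 in untreated ones. At 100 CPM or more, where counting gives 0.028 in A and 0.026 in B, the SD was 0.079 in A and 0.062 in B.

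The differences of the letters correlated weakly. Across the 8781 genes Pearson's r between them was 0.133 and Spearman's rho 0.118, and 53.9% of genes had the same sign. A difference past 25% was seen in 41 genes in letter A and 16 in letter B. Rps2-ps6 was past it in both letters, in the same direction, and no gene was past it in opposite directions. Past 1.5-fold there were 2 genes in letter A and none in letter B. A test of the difference between letters in the uridine effect called 0 of 12218 genes (0%, edgeR), with 215 (1.76%) at an unadjusted p under 0.05. The residual spread of that test came from the 3 groups with 4sU and not from the uridine or untreated libraries. The absence of calls therefore does not show that the letters agree.

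**Figure D5:**
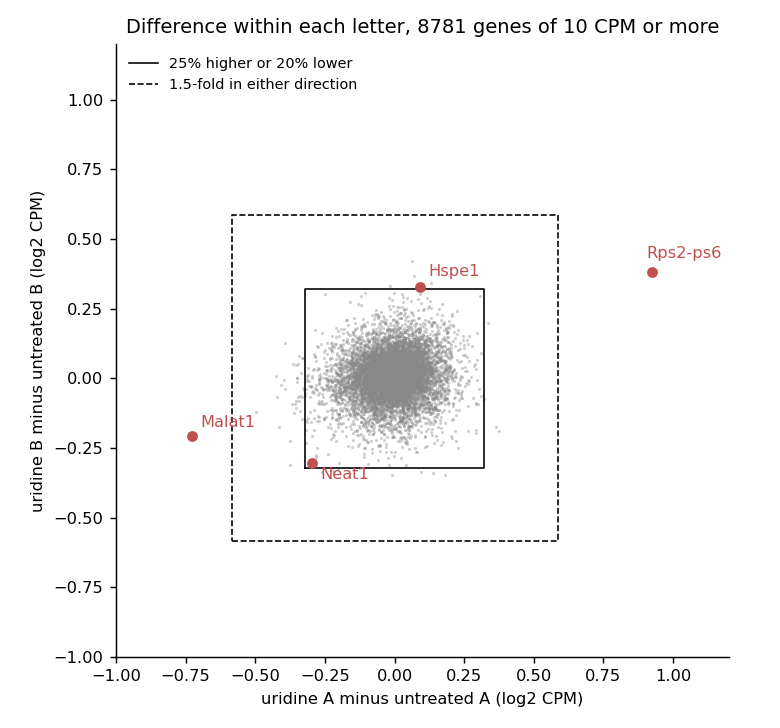
Uridine minus untreated log2 CPM in letter A (x axis) against letter B (y axis) for the 8781 genes of 10 CPM or more, 1 point per gene. Squares mark 25% (solid) and 1.5-fold (dashed); Rps2-ps6 alone is past 25% in both letters, and Malat1 is past 1.5-fold in letter A only.

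Among genes at 10 CPM or more, those with the greatest difference between the letters in their uridine effect mostly turned in sign, 5 of the 6 named by size. Scand1, which encodes a SCAN domain protein, had 31.7 and 21.5 CPM in uridine A and B, against 24.5 and 24.6 CPM in untreated A and B, a difference of 0.37 in A and -0.19 in B. Ccdc174 had 17.2 and 18.1 CPM in uridine A and B, against 20.5 and 14.6 CPM in untreated A and B, lower with uridine in A and higher in B. Dpm3, a subunit of dolichol-phosphate mannose synthase, had 13.6 and 9.77 CPM in uridine A and B, against 12.01 and 12.5 CPM in untreated A and B, higher in A and lower in B. Brwd3 and 3830406C13Rik turned likewise, and Rps2-ps6 differed in size but not in sign. None of these differences between letters passed adjustment.

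The difference varied with gene length in letter A. Spearman's rho between the log2 CPM difference and gene length, over the 8781 genes, was -0.37 in letter A and 0.07 in letter B. Divided into 5 equal groups by length, the median difference in letter A was 0.04 for the shortest genes (median length 1507 bases) and -0.06 for the longest (median 6988 bases). In letter B it was -0.00291 for the shortest and 0.02 for the longest. The letters also differed from each other with length: rho with length was 0.60 for uridine B minus uridine A and 0.49 for untreated B minus untreated A. Over the 24 lists, rho between median gene length and list median was -0.58 in letter A and -0.27 in letter B. Oxidative phosphorylation, with a median length of 1452 bases, had a median of 0.07 in A and 0.00134 in B, and nuclear noncoding RNAs, at 6983 bases, had -0.24 in A and -0.04 in B. The part of RNA quality or library preparation in this was not tested.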

How the data were processed

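The values are expected counts per gene (read counts in which a read that fits several genes is shared out, so they need not be whole), deposited by the authors in 1 table for all 10 libraries; the file header names library and measure. Per the submitters' processing notes the tools were cutadapt, Bowtie2 2.3.0 and STAR 2.7.10b; no source used here names the annotation, the build of the genome, how strand was used or which tool counted. A further 48 columns of per-sample estimates were not used. No mitochondrially encoded gene is listed.

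Counts were rounded to whole numbers. edgeR 4.0.16 (R 4.3.3) filtered them by group (filterByExpr), scaled them by TMM and fitted all 10 libraries with a term for each of 5 groups and the replicate letter as a block. The contrast was uridine minus untreated (glmQLFTest, Benjamini-Hochberg over 12218 genes, threshold 0.05). Intervals of 95% and equivalence tests came from limma 3.58.1 (voom, same design). Differences within a letter are log2 CPM with a prior count of 2, which understates low genes. Letters pair the samples: same-letter deviations from group means correlated at 0.584 to 0.69 over 10 pairs of groups. Depth ranged over 27094222 to 33785682 counts in the 4 libraries.

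The members, 30 gene lists and tests were chosen with earlier results of these data known. The named genes are all tested uridine-handling genes, called genes, the most abundant genes and those with the narrowest and widest intervals. Others are those differing most between letters, the ends of each list and 7 reference genes. The rule also takes the 8 highest and 8 lowest estimates with 1 sign in both letters. Those have 10 CPM or more in the higher group, and predicted, clone and pseudogene names are left out. Rps2, Meg3, Has3 and a few list members outside that rule were named after their values were seen. A symbol shared by several genes (25 symbols) stood for the gene with the most counts. Symbols were matched to RefSeq for 15970 of 17053 genes (93.6%). Alternatives were another scaling (RLE, library totals), no filter or a mean of 100 counts, no block, fewer libraries, DESeq2 1.42.0 and each library left out. The fits with length offsets and those that changed 2 choices at once were added after seeing the data. The code was tested on simulated counts.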

Additional observations from a re-analysis of the deposited data

How the results depend on the processing

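The call of Rps2-ps6 depended on the settings. With edgeR 0 genes passed with no replicate block (46 at an unadjusted p under 0.05), RLE factors (395), library totals (362) or a mean of 100 counts or more (307), and DESeq2 on 10 libraries also gave 0 (102). Leaving out 1 library at a time gave 0 to 1 calls: 0 without uridine A (235 at an unadjusted p under 0.05) or untreated A (381). The 4 libraries alone gave 3 (952 at an unadjusted edgeR p under 0.05, or 7.79%). With library totals or a mean of 100 counts they gave 4 (Hspe1 added, 980 and 863 unadjusted), and with length offsets 2 (1065). The 6 unconverted libraries gave 1 (777 unadjusted, or 6.36%). The fit of all 10 libraries had 380 (3.11%). The log2 fold change of Rps2-ps6 stayed between 0.41 and 0.90 in all of the edgeR settings run. The cause was not tested.

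The bound rested on the block. With no replicate block the median margin was 0.365 instead of 0.161, 8713 genes instead of 10549 had intervals within 1.5-fold, 3476 instead of 8904 within 25%, and 0 instead of 9194 passed equivalence within 25%. Every other setting run kept the count of intervals within 1.5-fold and the median margin within 1.5 times the values given. With a mean of 100 counts or more, which leaves out low genes, the SD over all tested genes was 0.114 in letter A and 0.0996 in letter B, against 0.221 and 0.2 with all of them. The greatest list median by size, 0.141, ranged over 0.0665 to 0.356 when 1 library was left out, and not for 1 list: 0.356 (without untreated B) was again nuclear noncoding RNAs, while 0.0665 (without uridine B) and 0.0781 (without untreated A) were glycolysis. No called gene turned in direction. Over 728 recomputed values for 49 named genes the sign of the estimate turned in 58, of which 43 left out a library. Those were estimates not called, the greatest Dpyd at 0.34 (-0.24 without uridine A). Low counts, 2 libraries a group and 1 dose and time limit the bound.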
